A study of Medicago truncatula with 24 samples.

Results

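H3ac, the form of histone H3 with acetyl groups on lysines of its tail (recognised by a pan-acetyl antibody), was compared between embryos of *Medicago truncatula* (A17) seeds matured at high and at standard temperature. The members were the H3ac peaks of 4 lists on chromosomes 1 to 8, 2 lists from 26°C and 2 from 20°C, set against each other stage by stage. They amounted to 6620 peaks, out of 6875 H3ac peaks on all sequences and 38053 peaks in the 12 lists of both histone marks of the series. Every peak on these chromosomes was used, and no measured value served to choose it.

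All plants were of the A17 line and were grown at 20°C by day and 18°C by night under a photoperiod of 16 h until they flowered. A group of plants then stayed in these conditions and the other was moved to 26°C by day and 24°C by night, the heat stress of the study. Embryos were dissected before desiccation tolerance was acquired (S1, 17 days after pollination at 20°C and 14 days at 26°C) and after it (S2, 26 days at 20°C and 17 days at 26°C). Seeds developed faster in the heat, so that embryos matched by stage differed in age, and temperature and age cannot be told apart within a stage. Each library came from at least 50 pooled embryos, with 1 IP library (made with the antibody) and 1 INPUT library (the same chromatin without it) for each condition. The series record describes 2 replicates for H3ac, but 1 library for each condition was analysed here. No difference below therefore has a replicate error, none has a p-value, and a test over the 2 stage pairs could not have gone below p = 0.5 (two-sided, exact sign-flip permutation test). Intervals given with shares are exact Clopper-Pearson intervals at 95%, and they cover no more than counting error.

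Acetylation of histone H3 loosens the contact between DNA and the nucleosome, and in plants it usually lies at the start of genes that are being transcribed. H3K27me3, the other mark of the series, is set by Polycomb complexes and is known for keeping developmental genes silent. Seed maturation, when embryos fill with reserves and become able to survive drying, is a phase in which large groups of genes are switched on and off. Because whole embryos were pooled, fewer cells carrying the mark at a place and less of the mark in each cell cannot be told apart. The gene table used here gives no product names or strand, so storage protein and other embryo marker genes could not be checked, and RefSeq symbols are used for genes. No sequence is printed, since no genome sequence of this assembly was used here.

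The 20°C S1 list stood apart from the other 3 lists and every S1 result rests on it. It held 4376 peaks, against 530 to 928 in the others. Its median peak length was 388 bp, against 839 bp at 26°C S1, 1040 bp at 20°C S2 and 1792 bp at 26°C S2. The shortest peak also differed, with 315, 435, 481 and 509 bp in the same order of lists. The background, the number of fragments expected at a summit by chance, was solved from the peak's fold enrichment (IP over INPUT at the summit) and its p-value. This background was 0.590 fragments at 20°C S1, 1.28 at 26°C S1, 1.84 at 20°C S2 and 2.25 at 26°C S2, where the IP signal had been scaled by 0.636. A peak at that background could be called from 3 fragments at 20°C S1, 5 at 26°C S1 and 6 at 20°C S2. At 26°C S2 it took 10 fragments counted before the scaling, whereas the background of 2.25 is in scaled units. The lowest fold enrichment of peaks at background was 2.49, 2.62, 2.46 and 2.27 in the same order of lists. It was thus lower at 26°C S2 than at 20°C S2. At 20°C S1, 2378 of the 2891 peaks at background had 5 or fewer fragments, against 54 peaks at 26°C S1 and none in either S2 list. At both stages the background was thus lower at 20°C than at 26°C, and its part in the temperature differences below was not tested. The S2 comparison does not use the 20°C S1 list.

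**Figure D1:**
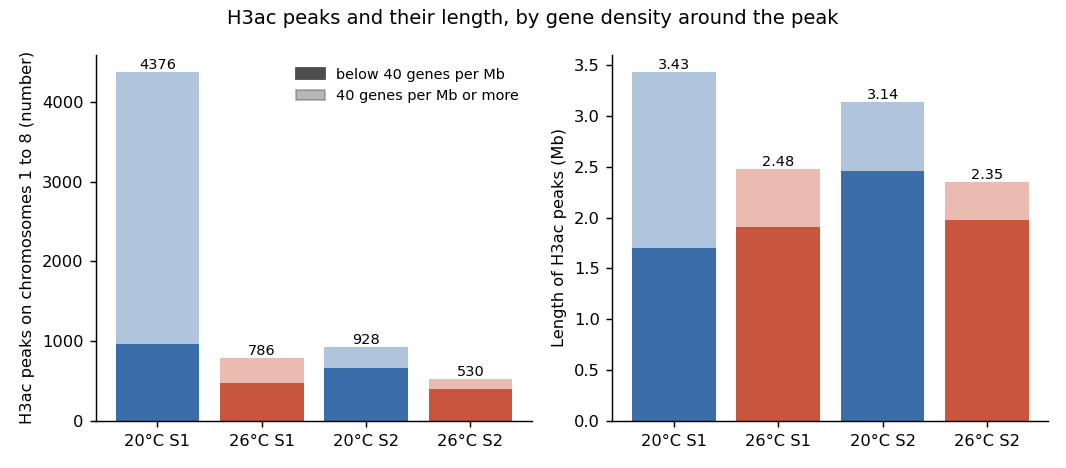
Number of H3ac peaks (left) and their summed length in Mb (right) in each of the 4 lists, 1 library a bar, 20°C in blue and 26°C in red. The dark part of a bar is from surroundings with fewer than 40 protein-coding genes per Mb and the light part from the rest; the 20°C S1 bar of 4376 peaks is mostly light, while lengths stay between 2.35 and 3.43 Mb.

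H3ac peaks were fewer at 26°C than at 20°C at both stages. There were 4376 peaks at 20°C S1 and 786 at 26°C S1, a log2 ratio of -2.48. At S2 there were 928 peaks at 20°C and 530 at 26°C, a log2 ratio of -0.81. The mean of both stages was -1.64, and without the 20°C S1 library the S2 value of -0.81 is what remains. All 8 chromosomes had fewer peaks at 26°C at each stage. At S1 the 20°C list had from 3.33 times (chromosome 6) to 9.31 times (chromosome 1) as many peaks as the 26°C list. At S2 the ratio ran from 1.34 times (chromosome 1) to 2.83 times (chromosome 5), so the chromosome with the highest ratio at S1 had the lowest at S2.

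The length of chromatin in peaks differed far less than their number. Peaks covered 3.43 Mb at 20°C S1 and 2.48 Mb at 26°C S1 (log2 ratio -0.47), and 3.14 Mb at 20°C S2 and 2.35 Mb at 26°C S2 (log2 ratio -0.41). This is 0.552 to 0.806% of the chromosomes, and each of the 8 chromosomes had less covered length at 26°C at each stage. The S1 direction did not hold under stricter rules. When only peaks with −log10 p values from 5 upwards were kept, the log2 ratio at S1 was 0.16, and with the 530 strongest peaks of each list it was 0.86. At S2 these rules gave -0.56 and -0.15. The second rule leaves the 26°C S2 list, which has 530 peaks, whole.

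The missing peaks of 26°C were mainly short ones. Peaks under 1 kb numbered 4128 at 20°C S1, 439 at 26°C S1, 445 at 20°C S2 and 168 at 26°C S2, log2 ratios of -3.23 at S1 and -1.41 at S2. The shortest peak was longer at 26°C than at 20°C at each stage (435 against 315 bp at S1, 509 against 481 bp at S2). The part of this lower limit in the counts of short peaks was not tested. Peaks of 5 kb or more numbered 90 at 20°C S1 and 145 at 26°C S1, and 187 at 20°C S2 and 106 at 26°C S2. They were thus more frequent in the heat at S1 (log2 ratio 0.69) and less frequent at S2 (-0.82). These long peaks held 38.5% of the covered length at 20°C S1 but 68.8 to 71.2% in the other 3 lists. The median fold enrichment of peaks was 3.14 at 20°C S1, 3.10 at 26°C S1, 3.17 at 20°C S2 and 2.87 at 26°C S2. Fold enrichment was taken with 1 added to both the IP signal and the background, and the lists differed in background. Similar fold enrichments therefore need not mean a similar ratio of IP to INPUT signal. The highest fold enrichment was 17.2, 29.3, 13.0 and 23.1 in that order, so that at each stage the highest single value was in the heat.

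The temperature difference at S1 varied with the place along the chromosomes. Surroundings were called gene-poor where fewer than 40 protein-coding genes had their midpoint within 500 kb on either side of the summit, which holds for 12.9% of the chromosomes (54.8 Mb). In plants such stretches lie mostly around the centromeres. They held 967 peaks at 20°C S1 (22.1% of the list), 478 at 26°C S1 (60.8%), 667 at 20°C S2 (71.9%) and 397 at 26°C S2 (74.9%). Gene-rich surroundings held 3409 peaks at 20°C S1 and 308 at 26°C S1, 11.1 times fewer in the heat, and 261 at 20°C S2 and 133 at 26°C S2, 1.96 times fewer. In gene-poor surroundings the 20°C list had 2.02 times as many peaks at S1 and 1.68 times as many at S2. The covered length there was 1.70 Mb at 20°C S1 and 1.91 Mb at 26°C S1, and 2.46 Mb at 20°C S2 and 1.98 Mb at 26°C S2, so it was higher in the heat at S1 (log2 ratio 0.17) and lower at S2 (-0.31).

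The gradient with gene density was steep in 3 lists and shallow in 20°C S1. From surroundings with fewer than 20 genes per Mb to those with 80 or more, the 20°C S1 list went from 20.9 to 8.80 peaks per Mb and the 26°C S1 list from 14.1 to 0.423 peaks per Mb. At S2 the 20°C list went from 19.5 to 0.243 and the 26°C list from 11.9 to 0.114 peaks per Mb. The ratio of 20°C to 26°C peaks at S1 was therefore 1.48 in the class with the fewest genes and rose through 2.30, 4.91 and 10.2 to 20.8 in the class with the most. At S2 it was 1.63, 1.71, 1.72, 2.47 and 2.13 over the same classes, the last from 51 peaks at 20°C and 24 at 26°C.

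**Figure D2:**
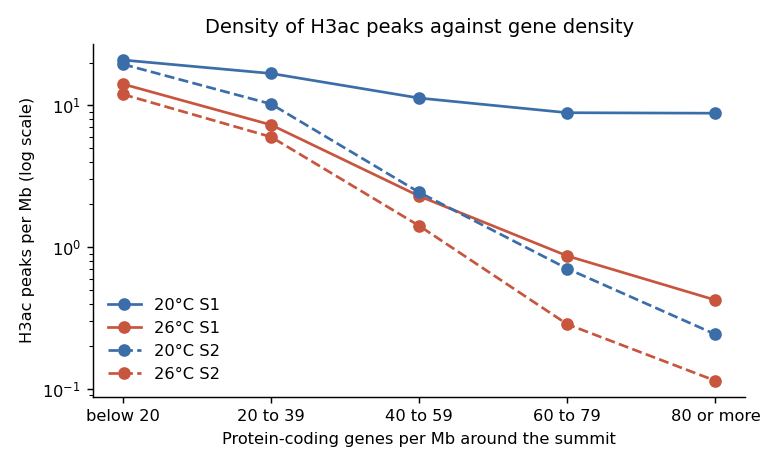
H3ac peaks per Mb (log scale) against the number of protein-coding genes per Mb around the summit, 1 line a list, 20°C in blue, 26°C in red, S1 solid and S2 dashed. The 20°C S1 line falls from 20.9 to 8.80, whereas the other 3 lines fall to 0.423 or below.

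Peaks inside protein-coding genes followed the pattern of the short peaks. Of 31728 such genes, 1647 carried a peak at 20°C S1, 66 at 26°C S1, 54 at 20°C S2 and 40 at 26°C S2, log2 ratios of 26°C to 20°C of -4.64 at S1 and -0.43 at S2. At S1 the lower number at 26°C was also there with the 530 strongest peaks of each list (log2 ratio -2.62, from 283 genes at 20°C and 46 at 26°C), but at S2 the direction turned (0.23, from 34 genes at 20°C and 40 at 26°C). At S2 this rule cut only the 20°C list, since the 26°C list has 530 peaks and stayed whole. Over all 39280 genes, 2272 (5.78%) had a peak in the gene at 20°C S1, 498 (1.27%) at 26°C S1, 603 (1.54%) at 20°C S2 and 632 (1.61%) at 26°C S2. The protein-coding share at 26°C S1 was 0.208% of protein-coding genes and at 20°C S1 5.19%, so only the 20°C S1 list had protein-coding genes at close to the share of all genes.

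The place of the summit in and around genes differed in the same way. At 20°C S1, 37.6% of summits were inside a protein-coding gene, against 8.65% at 26°C S1, 5.06% at 20°C S2 and 6.79% at 26°C S2, and against 30.5% of evenly spaced points every 10 kb. Summits more than 3 kb from any protein-coding gene made up 46.1% at 20°C S1 but 85.2, 90.4 and 87.4% in the other lists in that order (39.4% of the spaced points). The median distance to the nearest protein-coding gene was 2161 bp at 20°C S1 and 17861 bp at 26°C S1, and 21317.5 bp at 20°C S2 and 19412 bp at 26°C S2. Within genes of at least 2 kb, 832 of 1302 summits of 20°C S1 were nearer to an end of the gene than to its middle (63.9%, interval 61.2 to 66.5), where an even spread gives 50%. In the other lists it was 22 of 58 at 26°C S1 (37.9%, 25.5 to 51.6), 18 of 42 at 20°C S2 (42.9%, 27.7 to 59.0) and 14 of 36 at 26°C S2 (38.9%, 23.1 to 56.5). The intervals of these 3 lists all include 50%, so that summits near gene ends were in excess in the 20°C S1 list but not detectably in the others at these numbers. Without strand, the start and the end of a gene were not told apart.

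Genes for ribosomal RNA, which sit in long repeated arrays, behaved unlike protein-coding genes. Of 1407 rRNA genes, 442 (31.4%) had a peak in the gene at 20°C S1, 371 (26.4%) at 26°C S1, 478 (34.0%) at 20°C S2 and 516 (36.7%) at 26°C S2. The log2 ratio was -0.25 at S1 and 0.11 at S2, and 301 rRNA genes had a peak in all 4 lists. A single region on chromosome 6, described below, holds 460 rRNA genes, so these numbers do not count separate places. Copies within an array are near-identical and reads with several places in the genome were dropped before peaks were called, so values at single copies are uncertain. Of 1562 pseudogenes, 98, 34, 48 and 53 carried a peak at 20°C S1, 26°C S1, 20°C S2 and 26°C S2. Of 971 genes for snoRNAs, small RNAs that guide the modification of rRNA, 20 (2.06%), 14 (1.44%), 13 (1.34%) and 8 (0.824%) carried one in that order, fewer at 26°C at each stage. These shares were near or below those of all genes, which are mostly rRNA genes in every list but 20°C S1. Of protein-coding genes 5.19%, 0.208%, 0.170% and 0.126% had a peak in that order. The snoRNA share was thus below theirs at 20°C S1 and above it in the other lists, from few genes.

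Most peaks were found at 20°C or at 26°C only. At S1, 258 of 4376 peaks of 20°C overlapped a 26°C peak by at least 1 bp (5.90%, 5.22 to 6.64), and 246 of 786 peaks of 26°C overlapped a 20°C peak (31.3%, 28.1 to 34.7). At S2 it was 258 of 928 at 20°C (27.8%, 24.9 to 30.8) and 279 of 530 at 26°C (52.6%, 48.3 to 57.0). By length, S1 lists shared 1.14 Mb, which is 33.1% of the 20°C and 45.8% of the 26°C length. The S2 lists shared 1.48 Mb, 47.3% of the 20°C and 63.1% of the 26°C length. The list overlapped covered at most 0.806% of the chromosomes in any of these comparisons.

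Similarity followed stage and temperature in no simple order. The 26°C S1 peaks overlapped the 20°C S2 list more often (339 of 786, 43.1%, 39.6 to 46.7) than the 20°C list of their own stage (31.3%) or the 26°C S2 list (30.3%, 27.1 to 33.6). The lists they are compared with hold different numbers and lengths of peaks, 0.736% of the chromosomes at 20°C S2, 0.806% at 20°C S1 and 0.552% at 26°C S2. In embryos of the same age, 17 days, 26.8% of the 26°C S2 peaks overlapped a 20°C S1 peak (23.1 to 30.8), and 3.82% of the 20°C S1 peaks overlapped a 26°C S2 peak. The 26°C S2 peaks overlapped the 26°C S1 list in 42.5% and the 20°C S2 list in 52.6% of cases.

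Long peaks, and the few peaks of very low p-value, were mostly common to both temperatures. At S1, 64 of 90 peaks of 5 kb or more at 20°C were shared (71.1%, 60.6 to 80.2) and 98 of 145 at 26°C (67.6%, 59.3 to 75.1). At S2 it was 127 of 187 at 20°C (67.9%, 60.7 to 74.5) and 79 of 106 at 26°C (74.5%, 65.1 to 82.5). Of peaks under 500 bp, 2.17% of 3277 were shared at 20°C S1, 16.1% of 124 at 26°C S1 and 7.41% of 27 at 20°C S2. The 26°C S2 list had none of this length, since its shortest peak was 509 bp. A long peak has more room to overlap another. Peaks whose −log10 p reached 20 were shared in 25 of 28 cases at 20°C S1, 31 of 31 at 26°C S1, 37 of 46 at 20°C S2 and 25 of 33 at 26°C S2. Between 10 and 20 it was 14 of 94 at 20°C S1, 21 of 29 at 26°C S1, 44 of 62 at 20°C S2 and 18 of 25 at 26°C S2, so most of the strong peaks just below that limit at 20°C S1 were not shared.

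**Figure D3:**
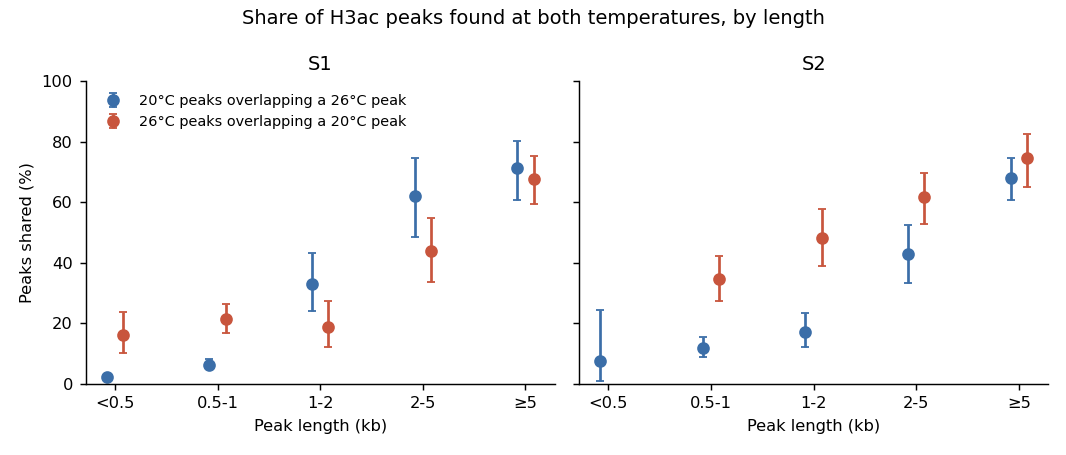
Percent of H3ac peaks overlapping a peak of the other temperature at S1 (left) and S2 (right), by peak length in kb, blue for 20°C peaks and red for 26°C peaks; bars are exact Clopper-Pearson intervals at 95%. Shares rise with length and reach 67.6 to 74.5% in peaks of 5 kb or more.

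Many peaks called at 20°C S1 only were low. Of its 4118 peaks without a 26°C S1 counterpart, 1236 (30.0%) had a fold enrichment under 2.62, the lowest that the 26°C S1 list reached at its background. Of the 540 peaks of 26°C S1 without a counterpart, 66 (12.2%) were under the matching value of the 20°C S1 list, 2.49. At S2 these shares were 2.84% of 670 peaks at 20°C and 14.7% of 251 at 26°C. Peaks with a fold enrichment of at least 4 and no counterpart numbered 857 at 20°C S1, 92 at 26°C S1, 114 at 20°C S2 and 32 at 26°C S2. A lower background lets fewer fragments reach a given fold enrichment. The background was lower at 20°C at both stages, and its part in these counts was not tested.

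Where peaks of both temperatures overlapped, their summits often lay apart. The median distance was 946 bp over 293 overlapping pairs at S1 and 1972.5 bp over 340 pairs at S2. Among pairs in which both peaks were under 1 kb, the median was 111 bp over 53 pairs at S1, with 26 pairs within 100 bp, and 296 bp over 8 pairs at S2. Between stages at a fixed temperature the medians were 812 bp at 20°C and 2141 bp at 26°C, so the distances between temperatures were of the same order as those between stages.

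Overlapping peaks of the 4 lists were joined into 5424 regions with a length of 6.77 Mb. Of these, 4944 had a peak in 1 list, 283 in 2 lists, 104 in 3 lists and 93 in all 4 lists. Regions with peaks at 20°C only numbered 4494, regions with peaks at 26°C only 552, and 378 had peaks at both temperatures. The 20°C S1 list alone accounted for 3964 regions.

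Temperature-specific regions rarely repeated at the other stage. Of the 4069 regions with a peak at 20°C only at S1, 80 were also at 20°C only at S2 (1.97%) and 13 were the reverse. Of the 471 regions with a peak at 26°C only at S1, 22 were also at 26°C only at S2 (4.67%), whereas 64 were at 20°C only at S2 (13.6%). Another 44 had peaks at both temperatures at S2 and 341 at neither. Both numbers are to be read against all S2 regions, in which those at 20°C only outnumbered those at 26°C only in a similar ratio. At S2, 634 regions were at 20°C only, of which 80 were the same and 64 the reverse at S1, and 232 were at 26°C only, of which 22 were the same and 13 the reverse. Without the 20°C S1 list, 30 regions had a peak in both 26°C lists and none in the 20°C S2 list.

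**Figure D4:**
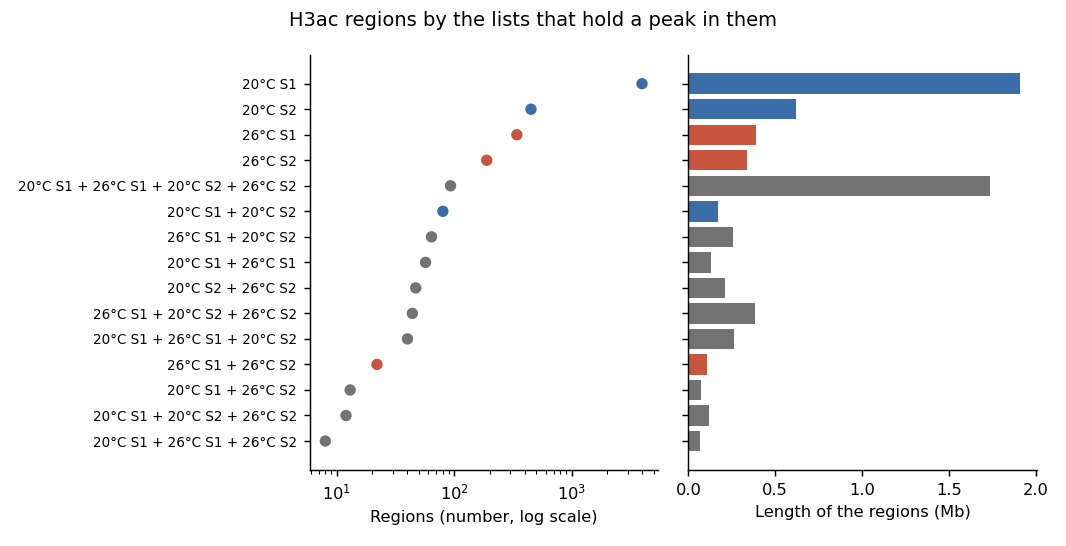
Number of H3ac regions (left, log scale) and their summed length in Mb (right) for each combination of the 4 lists, blue for 20°C only, red for 26°C only and grey for both temperatures. The 93 regions of all 4 lists cover 1.74 Mb, nearly as much as the 3964 regions of 20°C S1 alone with 1.91 Mb.

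The 93 regions with a peak in all 4 lists were long and mostly outside genes. Their median length was 11931 bp and their summed length 1.74 Mb. In gene-poor surroundings were 70 of them (75.3%). Of the regions of 1 list alone it was 17.9% at 20°C S1, 47.5% at 26°C S1, 67.6% at 20°C S2 and 70.4% at 26°C S2. A gene of any kind was overlapped by 16 (17.2%, against 36.9% of all regions), 4 of them a protein-coding gene. All 93 also overlapped an H3K27me3 peak in at least 1 of the 8 lists of that mark, and 28 did so in all 8. Of all 5424 regions 33.6% overlapped H3K27me3 in at least 1 list, and of the regions of 3 lists 87.5 to 100%. The region with the highest lowest fold enrichment was chr4:19942551-19955468, 73840 bp from the nearest protein-coding gene, LOC112418359. Its fold enrichment was 7.02 at 20°C S1, 8.54 at 26°C S1, 9.87 at 20°C S2 and 9.90 at 26°C S2. The summits of 26°C S1, 20°C S2 and 26°C S2 lay close together at 19947466, 19947437 and 19947475, and that of 20°C S1 was at 19949342. It overlapped H3K27me3 in all 8 lists.

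The longest region was an array of rRNA genes on chromosome 6, chr6:20569900-20711127, which is 141 kb long and holds 460 rRNA genes and no protein-coding gene. Its highest fold enrichment was 6.17 at 20°C S1, 6.18 at 26°C S1, 6.88 at 20°C S2 and 7.29 at 26°C S2. At S1 the summits of these values lay close together, at 20572768 at 20°C and 20572765 at 26°C. At S2 they were at different places, 20616677 at 20°C and 20710218 at 26°C, so those values do not compare 1 site. It was split into 10 peaks at 20°C S1, 16 at 26°C S1, 7 at 20°C S2 and 3 at 26°C S2. The next longest, chr1:22803371-22916985 (114 kb), had 1 gene, none of it protein-coding. Its highest fold enrichments were 5.72, 2.37, 3.68 and 2.47 in the same order of lists, lower at 26°C at each stage. These values too came from different places, with summits at 22904836, 22910760, 22911028 and 22822807 in that order. The other 3 of the 5 longest, on chromosomes 6, 7 and 8, held no annotated gene, and all 5 overlapped H3K27me3 in all 8 lists.

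The fold enrichment of shared regions was compared at the highest peak of each region, which can lie at different places at the 2 temperatures. At S1 198 regions had peaks at both temperatures, with a median log2 ratio of 26°C to 20°C of -0.05, 94 higher in the heat and 104 higher at 20°C. At S2 there were 196 such regions with a median of -0.23, 65 higher in the heat and 131 higher at 20°C. Within 2-fold lay 164 of the regions at S1 and 161 at S2. Of the 93 regions of all 4 lists, 18 were higher at 26°C at both stages, 29 were lower at both and 46 went opposite ways. Across regions Spearman's rho between the fold enrichments of the 2 temperatures was 0.25 at S1 and 0.15 at S2, a description over regions that share their libraries and had to pass a threshold.

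**Figure D5:**
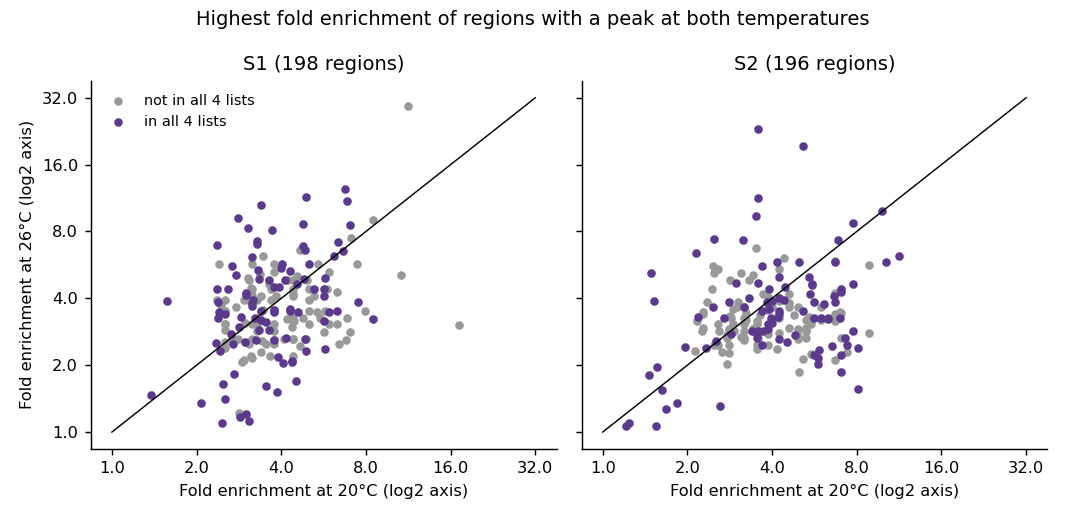
Highest fold enrichment at 26°C against that at 20°C for regions with a peak at both temperatures, 1 point a region, at S1 (left, 198 regions) and S2 (right, 196 regions), both axes log2; the line marks equal values and purple marks the regions of all 4 lists. Points lie evenly about the line at S1 (94 above, 104 below) and more often below it at S2 (65 above, 131 below).

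The highest fold enrichments were in the heat. The highest of all, chosen after the values were seen, was at chr7:45392860-45393343, a region of 484 bp at 1637 bp from LOC25499197, with 29.3 at 26°C S1 and 11.3 at 20°C S1 and no peak at S2. Its summits were at 45393118 at 26°C and 45393128 at 20°C, and it overlapped H3K27me3 in all 8 lists. At chr5:23296387-23304403 the value was 23.1 at 26°C S2, against 2.71 at 20°C S1, 2.50 at 26°C S1 and 3.55 at 20°C S2. At chr4:12708439-12732208 it was 19.3 at 26°C S2, against 2.84, 2.97 and 5.13 in the same order. This region spans LOC120580077 and LOC11441954, whose part of the region was in a peak at 26°C S2 only although the other lists had peaks elsewhere in it.

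Regions of both 26°C lists and neither 20°C list numbered 22, of median length 3848 bp. In gene-poor surroundings were 17 of them (77.3%, against 17.9 to 70.4% of the regions of 1 list alone). The strongest, chr7:19459085-19471474, had fold enrichments of 4.90 at 26°C S1 and 3.83 at 26°C S2, with summits at 19468552 and 19468140, and lay 18957 bp from LOC112418095. The next, chr7:16055769-16067759, reached 3.81 and 7.05. None of the 5 strongest overlapped a gene. Over all genes, 5 (0.0127%) had a peak in the gene or within 3 kb in both 26°C lists and in neither 20°C list, of which 3 were snoRNA genes and 1, LOC120578334 on chromosome 2, was protein-coding. Its peaks were beside the gene, with 3.27 at 26°C S1 and 2.46 at 26°C S2.

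Regions of both 20°C lists and neither 26°C list numbered 80, were shorter (median 1041.5 bp), and 42 of them (52.5%) were in gene-poor surroundings. With the 530 strongest peaks of each list the order of the 2 patterns turned, with 13 regions of both 20°C lists only and 30 of both 26°C lists only. This rule cut both 20°C lists and the 26°C S1 list but kept every peak of 26°C S2. The strongest was chr5:23486924-23487799 inside LOC112417792, a gene of 95827 bp, with 9.01 at 20°C S1 and 7.30 at 20°C S2 and summits at 23487158 and 23487185. On the same chromosome chr5:23924254-23926383, over LOC120580582, had 7.38 at 20°C S1 and 6.28 at 20°C S2, with summits at 23925171 and 23925191. LOC112420890 on chromosome 3 had 4.92 at 20°C S1 and 5.29 at 20°C S2, in a peak that was also within 3 kb of its neighbour LOC120579669. The other genes picked, LOC120579913, LOC11441351, LOC120578144 and LOC120580569, had 3.75 to 5.99 in or within 3 kb of the gene. LOC120576048 on chromosome 6 had 5.03 and 3.88, and LOC120579928 on chromosome 4 had 3.63 and 4.58 in the same order. In all, 49 genes (0.125%) had a peak in or within 3 kb in both 20°C lists and in neither 26°C list, 29 of them protein-coding.

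Several of the strongest regions of 20°C lay near each other on chromosome 5, a stretch singled out after its values were seen. At chr5:23600369-23601147 the fold enrichment was 17.2 at 20°C S1, 3.03 at 26°C S1 and 13.0 at 20°C S2, with no peak at 26°C S2. At chr5:23920652-23921692 it was 10.7, 5.12 and 8.40, again with no peak at 26°C S2. The region chr5:23905707-23920004, which spans LOC25480017, had 8.48, 9.03 and 6.85 and none at 26°C S2. These 3 regions thus had peaks in all lists but 26°C S2, and 2 of them were higher at 20°C than at 26°C at S1. Between them, chr5:23799861-23828995 had 6.74 at 20°C S1, 12.4 at 26°C S1, 8.07 at 20°C S2 and 1.57 at 26°C S2. The summits were at 23810359, 23811540, 23811730 and 23825557 in that order. The low value at 26°C S2 is thus from another place in the region than the other values. Of the 18 regions of this stretch, 13 had a peak at 20°C S1, 6 at 26°C S1, 9 at 20°C S2 and 3 at 26°C S2. Over all 8 chromosomes these lists held 4376, 786, 928 and 530 peaks, the same order by size. The order of the counts is therefore no trait of this stretch.

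Genes with a peak at a single temperature of a stage were counted with the condition that no peak of the other temperature lay in the gene or within 3 kb. At S1 this gave 1778 genes at 20°C (4.53% of all genes), of which 1610 were protein-coding, and 57 at 26°C (0.145%), of which 31 were protein-coding. At S2 it gave 82 genes at 20°C (0.209%), 42 of them protein-coding, and 62 at 26°C (0.158%), 28 of them protein-coding. At S2 the 2 temperatures thus had numbers of the same order.

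At 20°C S1 the 5 protein-coding genes with the strongest such peaks had a peak in no other H3ac list. They were LOC11438062 (fold enrichment 10.1), LOC25501409 (9.84), LOC25499015 (9.66), LOC11429848 and LOC11445499 (9.43 each). At 26°C S1 the strongest were LOC120578299 (6.58), LOC112418360 (6.10), LOC112416749 and LOC112418676, which share a peak (5.31), and LOC120577044 (5.21). Unlike the 20°C S1 genes, LOC120578299, LOC112418360 and LOC120577044 carried peaks at 20°C S2 as well (5.29, 8.81 and 6.97). LOC112418360 and LOC120577044 also had them at 26°C S2 (5.68 and 3.47), so at S2 they carried peaks at both temperatures.

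At S2 the strongest such genes at 20°C were LOC112417792 and LOC120580582, given above, LOC25480017 (6.85), LOC120576979 (6.70) and LOC112420890. LOC25480017 had peaks at both temperatures at S1 (8.48 and 9.03), and LOC120576979 had 6.21 at 26°C S1. At 26°C S2 they were LOC11441954 and LOC120580077 in 1 peak (19.3), LOC120580075 (7.14), and LOC11413403 and LOC120579495 in another (7.09). These 5 genes lie at 2 places, on chromosomes 4 and 3, and none had a peak in or near the gene in any other H3ac list.

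In 336 genes (0.855%) each of the 4 lists had a peak within the gene. The group comprised 301 rRNA genes and 3 protein-coding genes. LOC120575977 and LOC25481612 are neighbours on chromosome 6. LOC120575977 had 3.77 at 20°C S1, 2.60 at 26°C S1, 5.64 at 20°C S2 and 3.25 at 26°C S2, lower in the heat at each stage. LOC120579525 on chromosome 3 had 2.83, 1.41, 1.49 and 5.21 in that order, lower in the heat at S1 and higher at S2.

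Of the 77 protein-coding genes to which the gene table gives a name other than its locus number, 8 (10.4%) had an H3ac peak in the gene or within 3 kb, and in all 8 the peak was at 20°C S1. This is near the share of all protein-coding genes with such a peak at 20°C S1, 9.27%, so it is no result about the named genes, which are given as examples. In 6 of them it was in the gene. These were ATG4, a protease of autophagy (3.77), DELLA1, a repressor of gibberellin signalling (3.14), NOOT2, known from nodule identity (3.14), Vpyl, a relative of VAPYRIN (3.14), nsp2, a transcription factor of nodulation signalling (2.73), and CCS52B, an activator of the anaphase-promoting complex (2.52). The thioredoxin gene TrxS3 (5.36) had it beside the gene. None of the 8 had a peak at 26°C S1 or at S2, where 0.432% (26°C S1), 0.299% (20°C S2) and 0.221% (26°C S2) of all protein-coding genes had one.

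H3K27me3 was more often found over H3ac peaks that both temperatures shared than over those at a single temperature. At 20°C S1, 27.9% of 258 shared peaks (22.5 to 33.8) overlapped H3K27me3 of the same stage and temperature, against 4.49% of 4118 others (3.88 to 5.17). At 26°C S1 it was 39.4% of 246 (33.3 to 45.8) against 12.4% of 540 (9.75 to 15.5). At 20°C S2 it was 65.9% of 258 (59.8 to 71.7) against 24.8% of 670 (21.5 to 28.2), and at 26°C S2 30.5% of 279 (25.1 to 36.2) against 10.4% of 251 (6.88 to 14.8). In each list the intervals did not overlap. Shared peaks were also longer (median 1047.5 against 382 bp at 20°C S1, 3194 against 740.5 bp at 26°C S1, 4714.5 against 859.5 bp at 20°C S2, and 2519 against 1181 bp at 26°C S2), and the part of length in this difference was not tested. Over all 5424 regions, 33.6% overlapped H3K27me3 in at least 1 of its 8 lists, with 23.3% of the regions of 20°C S1 alone and 87.5 to 100% of the regions of 3 lists. Of the regions of both 26°C lists and neither 20°C list, 18 of 22 did so (81.8%, 59.7 to 94.8), and of those of both 20°C lists and neither 26°C list 66 of 80 did (82.5%, 72.4 to 90.1). The shares of these 2 patterns lay between those of regions in 1 list and in 3 lists.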

How the data were processed

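H3ac was measured by ChIP-seq in *M. truncatula* (A17) embryos, with 1 IP and 1 INPUT library for each stage and temperature. The authors trimmed reads with Trim Galore, used STAR for mapping to the MtrunA17r5.0 assembly, where only uniquely placed reads were retained, marked duplicates (Picard), and ran MACS2 separately for every IP library with its own INPUT as control, at a p-value threshold of 0.01. Their script shows the broad option for both marks, whereas narrow-format lists were deposited for H3ac, so the exact H3ac setting, which bears on peak length and number, is uncertain. Versions are not given in the sources used here. The deposited lists give each peak's interval, summit and fold enrichment, and its p-value and q-value as −log10. Fold enrichment was taken as the ratio of IP signal to INPUT background, with 1 added to each. The threshold and the removal of duplicates cannot be undone, and a lower background lets fewer fragments make a peak. The paper lists sequenced reads per library. Among the H3ac libraries, the 20°C S1 IP had the fewest and its INPUT the most, and the part of depth was not tested. Read numbers left for peak calling are not in the lists, so the background was solved from fold enrichment and p-value. At 20°C S1, 26°C S1 and 20°C S2, 96.4 to 99.5% of the peaks were solved within 0.02 fragments. At 26°C S2, 1 constant background was fitted from the commonest p-values, and 42.1% of the peaks matched it.

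Peaks on chromosomes 1 to 8 (425.9 Mb, up to the last peak or gene) were compared by an overlap of at least 1 bp in Python 3.11.15 (pandas 2.3.3, NumPy 2.4.6, SciPy 1.17.1), and plotted with matplotlib 3.10.9. All 12 overlap counts between lists were equal to those of bedtools 2.31.1, and the scripts were tested on simulated peaks. Genes were those of the RefSeq table of the same assembly (MtrunA17r5.0-ANR). Named genes were protein-coding genes with the highest lowest fold enrichment in both 26°C lists and neither 20°C list, the reverse, or all 4 lists (up to 10 each), the 5 strongest at a single temperature of each stage, and the 5 longest and 5 strongest regions; genes named by symbol and the chromosome 5 stretch were added afterwards. A gene with a symbol of its own is not reported here. Lists by product name could not be applied, since the table has none. Alternatives were limits on the −log10 p (5 or more), the q-value (0.05 or less) and the fold enrichment (3 or more), equal numbers of peaks, an overlap of 200 bp, the summit inside the other peak, peaks within 1 kb merged, all sequences, and no peaks within 1 kb of rRNA genes. Leaving out the 20°C S1 list was added after seeing the data. The members and lists were chosen with earlier results of these data known.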

Additional observations from a re-analysis of the deposited data

Results flagged for a closer look

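Several measures differed in direction between the stages, with 1 library a condition and no test of the difference. The number of peaks of 5 kb or more had a log2 ratio of 26°C to 20°C of 0.69 at S1 and -0.82 at S2, and their summed length 0.40 at S1 and -0.46 at S2. The covered length in gene-poor surroundings had 0.17 at S1 and -0.31 at S2. Among genes with a peak in the gene, the ratio was -2.19 at S1 and 0.068 at S2 for all genes, -1.53 and 0.14 for pseudogenes, and -0.25 and 0.11 for rRNA genes.

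Peaks outside chromosomes 1 to 8 were in no comparison above. The mitochondrial sequence carried 18 peaks at 20°C S1, which stood out because the other 3 lists had none there. The plastid sequence carried 7 peaks at 26°C S2, against 2 at 20°C S1, none at 26°C S1 and 1 at 20°C S2. Unplaced contigs carried 92 peaks at 20°C S1, 41 at 26°C S1, 61 at 20°C S2 and 33 at 26°C S2, fewer in the heat at each stage.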

How the results depend on the processing

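Of 125 values under other settings, over 18 results, 89 stayed near the value given above, 32 moved and 4 changed direction. The causes were not tested. Near means a factor of 1.5 for ratios and counts and the main value's interval for shares and distances. Strict p stands for a −log10 p from 5 upwards, strict q for a q-value up to 0.05, and high fold for a fold enrichment from 3 upwards. At S1 the log2 ratio of peak number was -1.79 with strict p. The log2 ratio of covered length turned to 0.16 at S1 with strict p, and with the 530 strongest peaks of each list to 0.86 at S1 and 0.35 as the mean of both stages. That of protein-coding genes with a peak became -2.62 at S1, 0.23 at S2 and -1.19 as their mean with the 530 strongest peaks. The whole 26°C S2 list is kept under that rule. Without the 20°C S1 library the means became -0.81 for peak number, -0.41 for covered length and -0.43 for protein-coding genes, and 30 regions had both 26°C lists and no 20°C list, and 137 all lists left.

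The share of 26°C S1 peaks overlapping a 20°C peak was 26.6% with strict p, 27.9% with strict q, 16.4% with equal lists, 22.1% with high fold and 23.3% with the summit inside the other peak. For 26°C S2 it was 43.2% with equal lists, 42.3% with high fold and 41.9% by summit. For 20°C S1 it was 7.80% with strict p, 14.5% with equal lists, 4.05% with high fold and 5.03% by summit. For 20°C S2 it was 23.7% with strict q, 35.7% with equal lists, 18.0% with high fold and 18.4% by summit.

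Regions of both 26°C lists only numbered 6 with strict p, 10 with strict q and 12 with high fold. Those of both 20°C lists only numbered 21 and 46 under the first 2 of these and 13 with equal lists. Those of all 4 lists numbered 35, 52, 40 and 35 with strict p, strict q, equal lists and high fold. The median distance between summits at S1 was 445.5 bp with strict p. No paired analysis was possible by replicate number because each group had 1 library, and the lists were paired by stage only. The low background of the 20°C S1 list and the single library limit every S1 difference.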

Other observations

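With the 530 strongest peaks of each list, the lists differed in the p-value they reached down to. For 26°C S2 these are all its peaks. The lowest −log10 p kept was 6.33 at 20°C S1, 3.43 at 26°C S1, 3.89 at 20°C S2 and 2.02 at 26°C S2. Of these 530 peaks, 113 were in gene-poor surroundings at 20°C S1, against 312 at 26°C S1, 371 at 20°C S2 and 397 at 26°C S2. The strongest peaks of 20°C S1 were thus also mostly in gene-rich surroundings. Gene-poor surroundings, 12.9% of the chromosomes, still held more than their share of them. Their median length was 470 bp, against 1010.5 bp at 26°C S1, 1664.5 bp at 20°C S2 and 1792 bp at 26°C S2.

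Without the 20°C S1 list, the regions of the other 3 lists fell into 137 with a peak in all 3, 105 in 26°C S1 and 20°C S2, 59 in both S2 lists and 30 in both 26°C lists. By count, the pair that differs in temperature and stage thus shared more regions than the pair of the same stage or the pair of the same temperature. It also joins the lists with the most peaks (786 at 26°C S1 and 928 at 20°C S2, against 530 at 26°C S2). These counts are not shares of a list and give no order of similarity.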
